A study of Mus musculus with 22 samples.

Results

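The simple keratins Krt7, Krt8, Krt18, Krt19 and Krt20, together with vimentin (Vim), were followed in 22 RNA-Seq libraries of mouse kidney. These 6 genes were taken by their symbols from a table of 32858 genes, and all 6 passed the filter on low counts that left 17131 genes for testing. Cisplatin raised the 5 keratins, from 1.95-fold for Krt7 to 228-fold for Krt20. With KW6002 added, Krt8, Krt18, Krt19 and Krt20 were lower than with cisplatin alone, and Krt7 did not pass the test. Vim passed in no comparison over all 22 libraries, and its values depended on which vehicle kidneys were used.

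Keratins and vimentin build intermediate filaments, the rope-like part of the cytoskeleton that gives cells their mechanical strength. A keratin filament forms from pairs of a type II chain, such as Krt7 or Krt8, and a type I chain, such as Krt18, Krt19 or Krt20, and an unpaired chain is usually degraded. In the kidney, simple keratins are known from the collecting duct and from the urothelium that lines the renal pelvis, whereas vimentin is made by fibroblasts, endothelial cells, leukocytes and podocytes, and both kinds of filament are known to appear in injured and regenerating tubule cells.

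Male C57Bl6/J mice aged 8 to 10 weeks had been given cisplatin, a platinum drug toxic to the kidney, KW6002 (istradefylline, an adenosine receptor antagonist), both, or vehicle. Cisplatin was injected i.p. at 3 mg/kg once a day on 6 days from day 0, and the animals were killed 72 hours after the last of these injections. KW6002 was injected i.p. at 3 mg/kg every day from day -5 to day 7, and the vehicle was its carrier of DMSO, cremophor and saline. There were 5 vehicle, 6 KW6002, 5 cisplatin and 6 cisplatin + KW6002 libraries, and the groups shared strain, sex and tissue and the labels give no engineered allele.

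On the mm10 build, with gene models from GENCODE M21, the 2 type II genes and Krt18 lie in the keratin cluster of chromosome 15, the other type I genes in that of chromosome 11, and Vim on chromosome 2. Krt7 (ENSMUSG00000023039) spans chr15:101411043-101430313 on the plus strand, Krt8 (ENSMUSG00000049382) chr15:101996698-102004482 on the minus strand, and Krt18 (ENSMUSG00000023043) chr15:102028180-102032027 on the plus strand. Krt19 (ENSMUSG00000020911) spans chr11:100140810-100148665 and Krt20 (ENSMUSG00000035775) chr11:99428403-99438150, both on the minus strand, and Vim (ENSMUSG00000026728) chr2:13573927-13582826 on the plus strand. Krt7 is overlapped on the other strand by Gm671 and Krt8 by Gm36026. The strand setting of the counting was not given in the sources used here, so how reads over both genes of a pair were assigned is not known.

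The keratin with the largest and the one with the smallest rise under cisplatin are shown by the 250 bases before their RefSeq starts (GRCm38.p6, the assembly of mm10), because the letters searched differed between them. Each is written 5′ to 3′ on the gene's strand. Capitals mark TATAAA in Krt20 (chr11:99438154-99438403, minus strand) and GGGCGG or its reverse complement in Krt7 (chr15:101412153-101412402, plus strand).
Krt20: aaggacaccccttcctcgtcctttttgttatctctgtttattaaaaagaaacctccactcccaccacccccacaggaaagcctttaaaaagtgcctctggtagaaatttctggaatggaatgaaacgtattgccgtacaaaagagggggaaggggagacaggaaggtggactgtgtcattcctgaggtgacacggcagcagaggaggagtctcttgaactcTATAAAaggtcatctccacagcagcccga
Krt7: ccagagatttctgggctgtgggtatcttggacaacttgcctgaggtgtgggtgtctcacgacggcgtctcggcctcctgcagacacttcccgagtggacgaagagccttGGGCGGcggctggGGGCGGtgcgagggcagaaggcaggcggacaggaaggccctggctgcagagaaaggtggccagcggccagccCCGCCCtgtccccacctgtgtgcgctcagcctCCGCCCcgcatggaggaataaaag
RefSeq promoters of 300 bases (250 before and 50 after the start) were matched for 5 of the 6 genes, with no entry for Krt19, and were searched on both strands. Krt20 held TATAAA 29 bases before its start and Vim 32 bases before, and in Krt8 the letters were found on both strands across the start itself. TATAAA was found in 13.6% of 32851 such promoters. Krt7 held GGGCGG 4 times, at 141, 128, 56 and 24 bases before the start, against 35.7% of promoters with at least 1 match, and Krt18 held neither motif. TGANTCA (7.81% of promoters) and TTCNNNGAA (8.30%) were found in none of the 5. A match to letters is a description and not a bound site.

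The libraries held between 26471762 and 40510754 counts, with a median of 32721214.5. Values are given as CPM, a gene's counts scaled to the TMM-corrected total of its library, and the TMM factors ran from 0.925 to 1.12. The labelled tissue showed in the summed CPM of 10 proximal tubule genes, which was 21308.9 to 23143.5 in vehicle and 4367 to 6617 in cisplatin kidneys. In whole-kidney RNA, fewer cells of a type and less RNA per cell cannot be told apart. A number in the 300s stands in the labels of replicates 1 to 3 of both the vehicle and the KW6002 group, and one in the 500s in all others, so the cisplatin groups hold libraries of the 500s only and comparisons with vehicle were also made within the 500s.

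Under cisplatin the type II keratins rose least. Krt8, the usual partner of Krt18, measured 45.9, 51.0, 50.2, 51.6 and 50.6 CPM in the vehicle kidneys and 145, 133, 154, 142 and 133 CPM in the cisplatin kidneys. Every cisplatin kidney lay above every vehicle kidney, and within each group the values were close together. Mean CPM went from 49.9 ± 2.31 (SD, n = 5) to 142 ± 8.98 (n = 5), a log2 fold change of 1.51 with a standard error (SE) of 0.08 (adjusted p = 6.47e-14, edgeR quasi-likelihood test). Krt7, a keratin of ducts and urothelium, measured 88.0, 81.8, 106, 96.5 and 104 CPM with vehicle and 179, 212, 179, 170 and 191 CPM with cisplatin. Its groups did not overlap either, and its log2 fold change of 0.96 (SE 0.11, adjusted p = 3.26e-08) was the smallest of the 5 keratins.

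The type I keratins rose more. Krt18 measured 14.6, 17.1, 13.4, 19.3 and 14.8 CPM with vehicle and 118, 114, 117, 114 and 107 CPM with cisplatin, so that the lowest cisplatin kidney stood far above the highest vehicle kidney. The change was 7.20-fold (95% interval 5.95 to 8.71; log2 2.85, SE 0.13, adjusted p = 1.64e-14). Krt19, a type I keratin of ductal epithelium that lacks the usual tail domain, measured 1.75, 8.02, 2.89, 6.02 and 3.78 CPM with vehicle and 52.4, 50.6, 47.8, 45.6 and 46.0 CPM with cisplatin. The vehicle values scattered widely while the cisplatin values did not, and the change was 10.9-fold (7.29 to 16.4; log2 3.45, SE 0.28, adjusted p = 2.26e-10).

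Krt20 is known from the gut lining and the superficial cells of the urothelium. It measured 1.78, 1.28, 0.605, 1.16 and 0.456 CPM with vehicle, from 14 to 55 raw counts, and 265, 224, 298, 279 and 136 CPM with cisplatin, or 4810 to 11192 counts. Of the cisplatin kidneys, replicate 5 measured the least Krt20, Krt18 and Krt8, and it also had the highest summed proximal tubule level of the group (6617 CPM) and the highest summed macrophage (294 CPM) and urothelium (59.4 CPM) levels. The part of these cell types in the keratin values was not tested. The change was 228-fold (141 to 368; log2 7.83, SE 0.33, adjusted p = 4.01e-15).

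**Figure D1:**
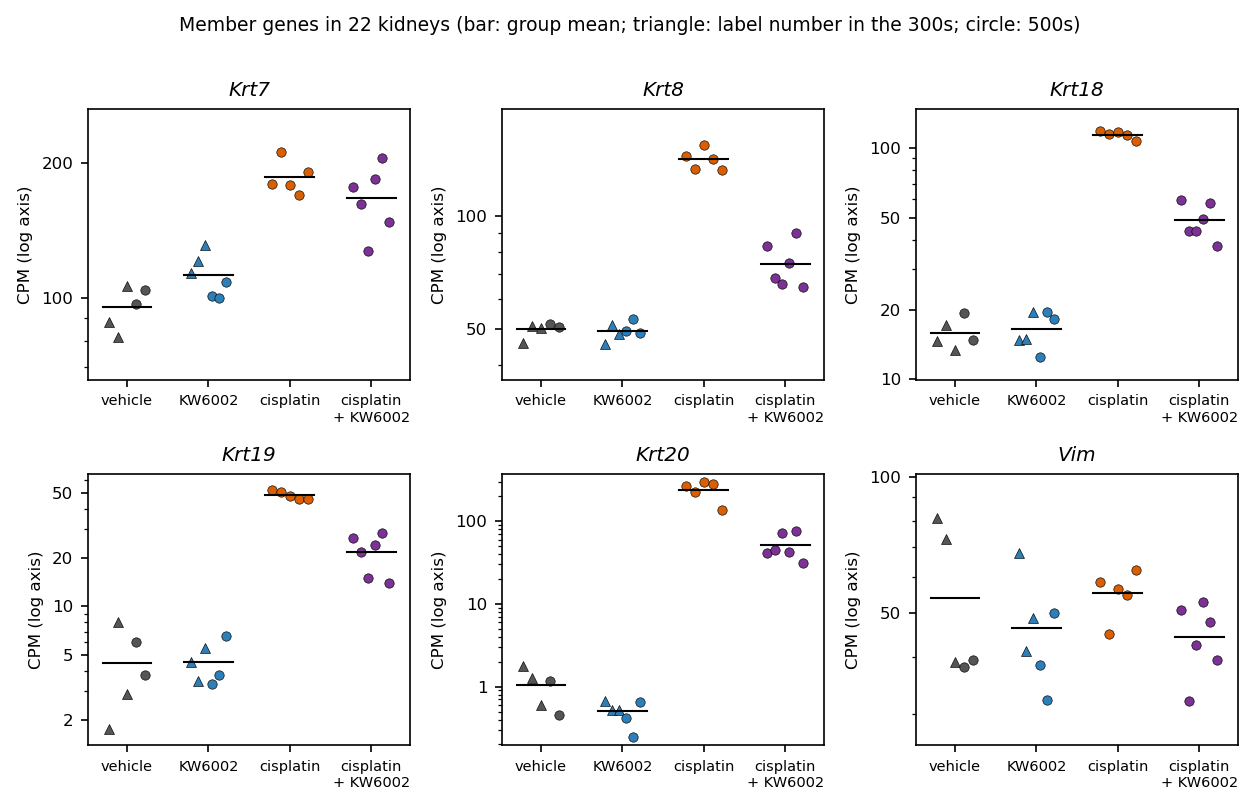
CPM of each member gene in each of 22 libraries, on a log axis that differs between panels; symbols are libraries, horizontal lines are group means, triangles are label numbers in the 300s and circles in the 500s. The 5 keratins separate the cisplatin from the vehicle kidneys, from 136 CPM upward against at most 1.78 CPM for Krt20, while the Vim groups overlap.

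In all, 5 of the 6 genes were higher with cisplatin, against 34.6% of all genes tested (35.9% were lower). At the study's own thresholds (a log2 fold change beyond 1 at an adjusted p below 0.01), 4 of the 6 passed, namely Krt8, Krt18, Krt19 and Krt20, against 12.1% of genes. Groups not overlapping, with every cisplatin kidney higher, held for the same 5 keratins and for 27.4% of genes. Within the 500s the log2 fold changes were 0.89 for Krt7, 1.46 for Krt8, 2.74 for Krt18, 3.31 for Krt19 and 8.23 for Krt20, all past the threshold.

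Vim measured 81.1, 72.7, 39.0, 38.1 and 39.4 CPM in vehicle replicates 1 to 5 and 58.6, 45.1, 56.7, 54.9 and 62.2 CPM in the cisplatin kidneys. Vehicle replicates 1 and 2 stood above every cisplatin kidney and the other 3 vehicle kidneys below every one. The log2 fold change was 0.04 (95% interval -0.39 to 0.47, adjusted p = 0.880). Within the 500s, where vehicle measured 38.1 and 39.4 CPM, the log2 fold change was 0.51 (SE 0.18, adjusted p = 0.0172). Without vehicle replicates 1 and 2, a choice made after the data were seen, it was 0.51 (SE 0.18, adjusted p = 0.0166).

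The high Vim kidneys also carried more RNA of other cell types. Vehicle replicates 1 and 2 and KW6002 replicate 1, at 81.1, 72.7 and 67.9 CPM of Vim, had summed levels of 8 macrophage markers of 316, 298 and 354 CPM, and the other untreated and KW6002 kidneys had 160.1 to 212 CPM. Their summed levels of 5 fat markers were 410, 749 and 342 CPM, against 12.2 to 159 CPM in the others. The 8 fibroblast markers summed to 465, 446 and 520 CPM, and KW6002 replicate 6, with 50.1 CPM of Vim, reached 499.96 CPM. No gene of the 3 lists was at 0 in any group. With the mean of the fat markers as a covariate, the Vim log2 fold change under cisplatin was 0.02 (SE 0.16, adjusted p = 0.922). The part of these cells in the Vim values was not tested further.

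**Figure D2:**
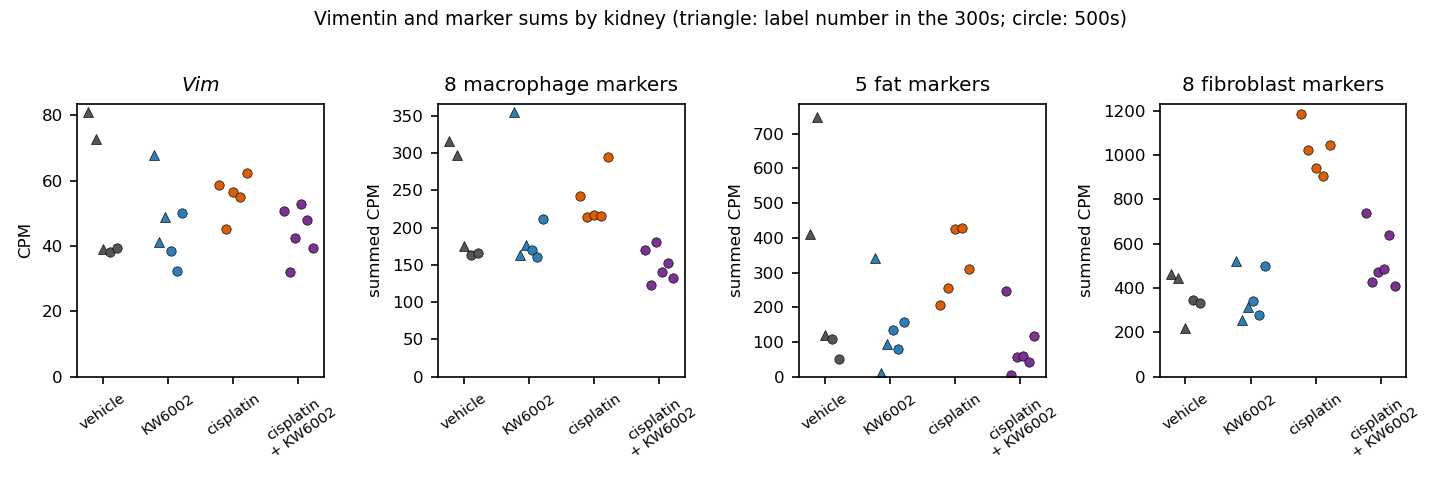
Vim (CPM) and the summed CPM of macrophage, fat and fibroblast markers in each library, by group on the x axis; triangles are label numbers in the 300s and circles in the 500s. The 2 highest vehicle and the highest KW6002 values of Vim, 81.1, 72.7 and 67.9 CPM, come from the libraries with the highest macrophage and fat sums of their groups.

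When KW6002 was given with cisplatin, 4 of the 6 genes were lower than with cisplatin alone, against 27.2% of all genes tested (28.6% were higher). These were Krt8, Krt18, Krt19 and Krt20, in none of which the 2 groups overlapped (every library lower, 18.5% of genes). Krt20 ranged from 30.9 to 76.1 CPM with a median of 43.7 in the cotreated kidneys, below the 136 CPM of the lowest cisplatin kidney. It fell by 2.23 on the log2 scale (SE 0.22, adjusted p = 1.43e-08). Krt18 ranged from 37.6 to 59.5 CPM with a median of 46.5, and fell by 1.23 (SE 0.12, adjusted p = 9.79e-09).

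Krt19 ranged from 14.0 to 28.5 CPM with a median of 22.8, and fell by 1.17 on the log2 scale (SE 0.23, adjusted p = 0.000209). Krt8 ranged from 64.6 to 90.2 CPM with a median of 71.8, and fell by 0.92 (SE 0.07, adjusted p = 4.48e-10). All 4 were lowest in cotreated replicate 6, which had the highest summed proximal tubule level of the group, 14102.2 CPM against 9748 to 12677 CPM in the other 5. Replicate 1, second in that level at 12677 CPM, had the highest Krt18 of the group. Replicate 5 was the highest for Krt8, Krt19 and Krt20. At the study's thresholds Krt18, Krt19 and Krt20 passed, against 5.66% of genes lower.

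Krt7 departed from the other keratins. It ranged from 127 to 205 CPM with a median of 170 in the cotreated kidneys, where replicate 3 was lowest and replicate 5 highest, and it overlapped with the cisplatin group. Its log2 fold change against cisplatin was -0.15 (95% interval -0.36 to 0.05, adjusted p = 0.198). Vim ranged from 32.0 to 52.9 CPM with a median of 45.2, and its log2 fold change was -0.33 (95% interval -0.74 to 0.08, adjusted p = 0.168). With only the 2 cisplatin groups fitted, the spread of the vehicle kidneys did not enter, and the Vim value was -0.33 (SE 0.12, adjusted p = 0.0271). With the fat covariate in the edgeR fit it was 0.20 (adjusted p = 0.440). The 5 fat markers summed to 207 to 429 CPM in cisplatin and 6.05 to 247 CPM in cotreated kidneys. That covariate is therefore partly bound to the groups compared, and its effect cannot be fully told apart from theirs.

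**Figure D3:**
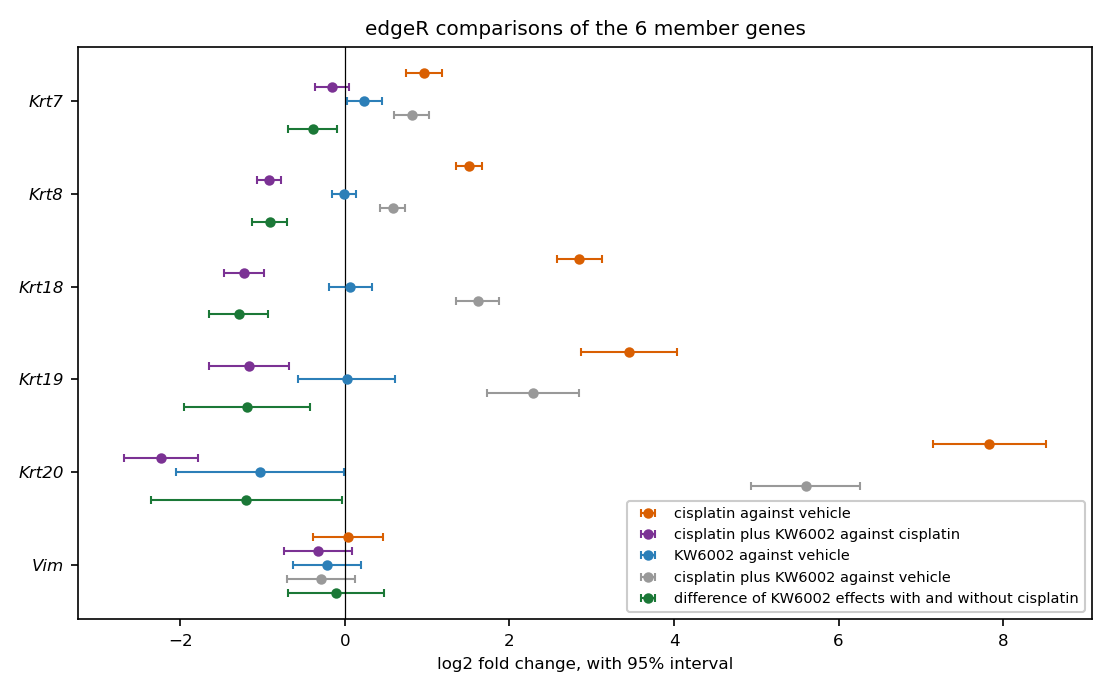
Log2 fold changes (points) with 95% intervals (bars) of the 6 genes in 4 comparisons and in the interaction of KW6002 with cisplatin, from edgeR. The cisplatin intervals of the 5 keratins lie above 0, and those of the cotreated against the cisplatin kidneys lie below 0 for Krt8, Krt18, Krt19 and Krt20.

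KW6002 alone moved none of the 6 genes past the threshold in edgeR or in DESeq2. In edgeR 0.0175% of genes were higher and 0 lower, and 11.3% of genes had an unadjusted p below 0.05, among them Krt7 and Krt20. Krt7 ranged from 99.7 to 131 CPM with a median of 111, and its log2 fold change was 0.23 (95% interval 0.02 to 0.45, adjusted p = 0.379). The 3 KW6002 kidneys numbered in the 300s measured 113 to 131 CPM of Krt7 and the 3 in the 500s 99.7 to 108 CPM, and within the 500s the log2 fold change was 0.04. Krt20 ranged from 0.246 to 0.673 CPM, from 7 to 24 raw counts, with 0.525 CPM as the median, and its log2 fold change was -1.03 (95% interval -2.06 to -0.01, adjusted p = 0.437).

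The other keratins of the KW6002 kidneys overlapped with vehicle. Krt8 ranged from 45.7 to 53.2 CPM with a median of 49.2, and the 95% interval of its log2 fold change was -0.16 to 0.14. Krt18 ranged from 12.4 to 19.6 CPM with a median of 16.6, with an interval of -0.20 to 0.32. Krt19 ranged from 3.32 to 6.55 CPM with a median of 4.14, with an interval of -0.57 to 0.61. Changes inside that interval were not excluded, and with adjustment over all genes tested larger ones could also have gone uncalled. Vim ranged from 32.2 to 67.9 CPM with a median of 45.0, and its log2 fold change was -0.22 (95% interval -0.63 to 0.20).

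Whether KW6002 acted differently in cisplatin-treated and untreated mice was asked by an interaction term of the same fit, its effect with cisplatin minus its effect without. It was below 0 for all 6 genes and past the threshold for 4 of them, against 19.9% of all genes tested that passed in this direction. The log2 difference was -1.29 for Krt18 (SE 0.17, adjusted p = 3.30e-06), -0.91 for Krt8 (SE 0.10, adjusted p = 3.33e-07) and -1.19 for Krt19 (SE 0.37, adjusted p = 0.0123). For Krt7 it was -0.39 (SE 0.14, adjusted p = 0.0319), which was -0.19 within the 500s (adjusted p = 0.433) and missed the threshold without vehicle replicate 1 or 2, KW6002 replicate 2 or 3, cisplatin replicate 2 or cotreated replicate 6, at values of -0.37 to -0.34 and adjusted p of 0.0502 to 0.0689. Krt20 had a value of -1.20 (SE 0.56, adjusted p = 0.0901), which passed without vehicle replicate 1 (-1.49, adjusted p = 0.0452), cisplatin replicate 5 (-1.35, 0.0375) or cotreated replicate 5 (-1.35, 0.0444). For Vim it was -0.11 (95% interval -0.69 to 0.47).

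Against vehicle, the cotreated kidneys still had 5 of the 6 genes higher, against 29.8% of all genes tested, and the groups of the 5 keratins did not overlap (18.9% of genes). The log2 fold change was 0.81 for Krt7, 0.58 for Krt8, 1.62 for Krt18, 2.28 for Krt19 and 5.60 for Krt20, the last a 48.5-fold change (95% interval 30.7 to 76.6). This comparison shares its vehicle kidneys with the cisplatin comparison. Of the rise in mean CPM seen with cisplatin, 79.1% remained for Krt7, 38.8% for Krt19, 33.3% for Krt18, 27.0% for Krt8 and 21.0% for Krt20. On the log2 scale the shares were 84.0% for Krt7, 71.5% for Krt20, 66.2% for Krt19, 56.8% for Krt18 and 38.6% for Krt8, so Krt7 kept the most on both scales and the order of the others depended on the scale. Vim had a log2 fold change of -0.29 (95% interval -0.70 to 0.12).

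Divided by exon length, levels can be set against each other. The length used was the union of all exons, and with the longest transcript in its place the values of Krt7 and Vim were over 1.5 times higher, those of Krt19 higher by less, and those of Krt8, Krt18 and Krt20 the same. In vehicle kidneys Krt8 led at 25.5 ± 1.18 CPM per kb (SD, n = 5), followed by Krt7 at 13.5 ± 1.49, Vim at 11.4 ± 4.44, Krt18 at 11.0 ± 1.63, Krt19 at 2.42 ± 1.36 and Krt20 at 0.549 ± 0.279. On this length Krt7, Vim and Krt18 lay within their spread of one another, but with the longest transcript Krt7 was at 23.3 ± 2.56, beside Krt8, and Vim at 18.5 ± 7.19. The KW6002 kidneys (n = 6) had Krt8 at 25.3 ± 1.32 and Krt20 at 0.263 ± 0.0823 CPM per kb, and Krt7 at 15.9 ± 1.70 below Krt8, but at 27.4 ± 2.92 above it with the longest transcript.

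The order changed with cisplatin. Krt20 led at 125 ± 33.4 CPM per kb (n = 5), followed by Krt18 at 79.4 ± 2.99, Krt8 at 72.3 ± 4.58, Krt7 at 26.4 ± 2.28, Krt19 at 26.1 ± 1.59 and Vim at 11.7 ± 1.36. In cisplatin replicate 5 Krt20, at 70.7 CPM per kb, was below Krt18 at 74.5. Krt7 and Krt19 lay within their spread of each other, but not with the longest transcript, at 45.5 ± 3.93 and 30.8 ± 1.87. In the cotreated kidneys (n = 6) Krt8 was at 38.1 ± 5.26 CPM per kb, with Krt18 at 33.8 ± 6.04, Krt20 at 26.6 ± 9.42 and Krt7 at 23.7 ± 3.95, and these neighbours overlapped. With the longest transcript Krt7 was at 40.8 ± 6.81 and its mean above that of Krt8. Krt19 at 11.6 ± 3.22 and Vim at 9.33 ± 1.66 were lower and overlapped with each other.

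The balance of the pairing types moved accordingly. The summed length-scaled level of the type II genes Krt7 and Krt8 was 2.88 ± 0.597 times that of the type I genes Krt18, Krt19 and Krt20 in vehicle (2.23 to 3.63) and 2.97 ± 0.527 times in KW6002 kidneys (2.43 to 3.72). With cisplatin the ratio was 0.437 ± 0.0707 (0.389 to 0.559), and with cotreatment 0.875 ± 0.134 (0.685 to 1.08). The ranges of the vehicle and cisplatin kidneys did not meet, and the cotreated kidneys lay between them. The pair Krt8 and Krt18 taken alone had a ratio of 2.34 ± 0.298 with vehicle, 0.910 ± 0.0406 with cisplatin and 1.13 ± 0.0760 with cotreatment. Krt20 made up 1.05% ± 0.584 of the summed level of the 5 keratins with vehicle, 37.3% ± 6.43 with cisplatin and 19.7% ± 5.55 with cotreatment, and the sum itself was 53.0 ± 3.47, 329 ± 39.2 and 134 ± 22.4 CPM per kb. These ratios are descriptions of RNA and carry no test.

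**Figure D4:**
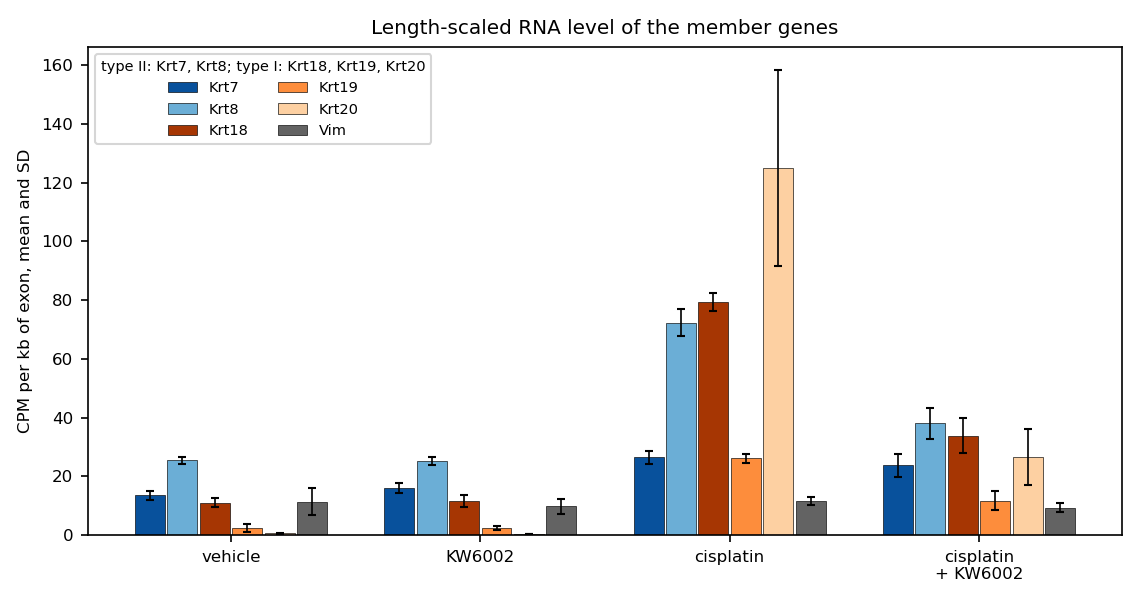
Level of each member gene in CPM per kb of the union of its exons (y axis, linear from 0), by group; bars are means and whiskers SDs over 5 or 6 libraries. Blue bars are type II, brown and orange bars type I keratins, and grey is Vim: Krt8 leads in vehicle at 25.5 CPM per kb and Krt20 with cisplatin at 125.

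The remaining keratin genes numbered 49, of which 33 were among the 32858 genes listed and 10 had enough counts to be tested. With cisplatin 8 of the 10 rose and 2 fell (median log2 fold change 1.82, against -0.01 over all genes tested), and between cotreated and cisplatin kidneys 8 were lower and 2 higher (median -1.14, against 0.01). Over all genes tested, 34.6% were higher and 35.9% lower with cisplatin, and 27.2% lower and 28.6% higher cotreated against cisplatin. The summed level of the remaining keratin genes was 25.1 to 35.4 CPM in vehicle, 51.6 to 59.0 CPM in cisplatin and 26.9 to 39.4 CPM in cotreated kidneys. Krt15, a keratin of basal cells in stratified epithelia, went from 1.49 ± 0.697 to 6.68 ± 2.26 CPM with cisplatin (log2 2.17, SE 0.32, adjusted p = 2.94e-06). Krt23 went from 1.71 ± 0.314 to 7.42 ± 0.527 CPM (log2 2.11, SE 0.20, adjusted p = 2.31e-09). Krt222, a keratin-like gene, fell from 1.42 ± 0.225 to 0.426 ± 0.148 CPM, by 1.73 on the log2 scale (adjusted p = 7.55e-07).

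In the cotreated kidneys Krt15 measured 3.19 ± 0.883 CPM, Krt222 was higher than with cisplatin alone at 1.21 ± 0.284 CPM (adjusted p = 7.59e-06), and Krt5, a basal cell keratin, was lower (log2 -1.21, SE 0.47, adjusted p = 0.0310). Krt12, best known from the cornea, was chosen here after its values were seen. It had 1 count over the 5 vehicle libraries, 0 over the 6 KW6002 libraries, 249 over the 5 cisplatin libraries and 44 over the 6 cotreated libraries, a level of 1.32 ± 0.505 CPM with cisplatin.

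**Figure D5:**
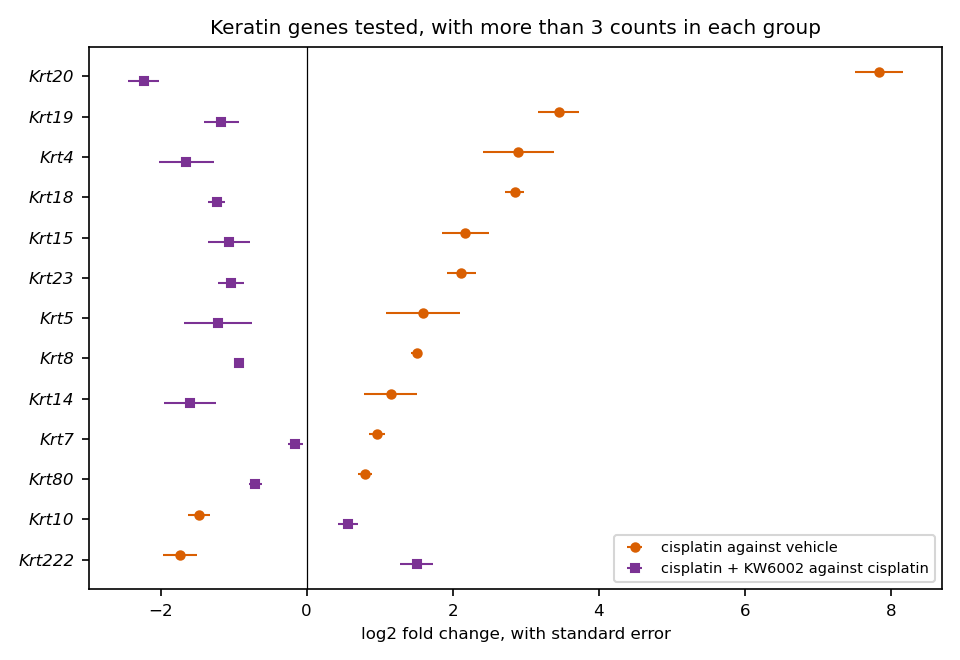
Log2 fold changes with standard errors (x axis) of the 13 tested keratin genes that had more than 3 counts in each group (y axis), ordered by the cisplatin change; circles compare cisplatin with vehicle, squares cotreated with cisplatin kidneys. Krt20 is at the top at 7.83, and Krt222 at the bottom at -1.73 is higher again with cotreatment.

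Proteins that anchor, bundle or protect keratin filaments were read from lists of genes grouped by function, chosen with earlier results of these data known. Of 17 linker and desmosome genes, 12 rose and 3 fell with cisplatin (median 0.68), and 8 were lower and 3 higher with cotreatment than with cisplatin alone (median -0.24). The shares of all genes tested, for this list and the next, were 34.6% higher and 35.9% lower with cisplatin. With cotreatment 27.2% were lower and 28.6% higher than with cisplatin alone. Periplakin (Ppl), which ties keratin filaments to the cell border, went from 12.98 ± 5.09 to 184 ± 20.7 CPM with cisplatin (log2 3.82, SE 0.22, adjusted p = 6.54e-13) and measured 48.4 ± 7.23 CPM with cotreatment. Perp, a desmosomal protein and p53 target, rose by 1.76 (SE 0.08), and Eppk1, epiplakin, which binds simple keratins, by 1.51 (SE 0.25). Of 6 genes of small heat shock, chaperone and other proteins that act on intermediate filaments, 5 rose and none fell (median 0.88), and with cotreatment 5 were lower and 1 higher (median -0.67). Hspb1 went from 1.15 ± 0.363 to 15.2 ± 4.25 CPM with cisplatin (log2 3.71, SE 0.25, adjusted p = 6.04e-12) and to 3.34 ± 0.771 CPM with cotreatment, and Cryab rose by 2.17 (SE 0.25) and Hspb8 by 1.22 (SE 0.16).

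Of 14 other intermediate filament genes, 10 were tested, and 7 rose and 1 fell with cisplatin (median 0.50), against 34.6% and 35.9% of all genes tested. Synemin (Synm), a filament protein that assembles only with vimentin, desmin or related chains, went from 3.15 ± 1.44 to 12.6 ± 2.55 CPM (log2 2.01, SE 0.24, adjusted p = 9.88e-08) and measured 4.65 ± 1.31 CPM with cotreatment. Lamin A (Lmna), of the nuclear lamina, rose by 1.27 (SE 0.07) and desmin (Des), a muscle and mesenchymal filament, by 0.66 (SE 0.13). Of 12 genes tied to epithelial-mesenchymal transition, 6 rose and 1 fell (median 0.60), against the 34.6% and 35.9% of all genes tested, with Tgfb1, a growth factor, at 1.37 and Snai1, a repressor of E-cadherin, at 0.95, while N-cadherin (Cdh2), a cadherin of the proximal tubule, fell by 0.83. E-cadherin (Cdh1) itself, an epithelial cadherin that is lost in such a transition, was among the 6 that rose, by 0.75 (SE 0.07). With cotreatment 5 of these 12 were lower and 1 higher (median -0.37), and of the other filament genes 5 were lower and 1 higher (median -0.44). Of all genes tested, 27.2% were lower and 28.6% higher in that comparison. KW6002 alone moved no gene of any list past the threshold, against 0.0175% of all genes tested that were higher and 0 that were lower.

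Genes known from the injured tubule were taken as a list, also chosen with earlier results of these data known. Of 15, 14 rose and none fell with cisplatin (median 1.98), and 11 were lower and 1 higher with cotreatment (median -0.87). All 10 proximal tubule genes fell with cisplatin (median -2.01), and 8 were higher with cotreatment than with cisplatin alone (median 1.15). Beside both lists, 34.6% of all genes tested were higher and 35.9% lower with cisplatin. With cotreatment 28.6% were higher and 27.2% lower than with cisplatin alone.

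Cell types that make simple keratins in the uninjured kidney were followed by their own markers. All 8 urothelium genes were detected in each group, and Krt5, which is on this list, was also counted among the remaining keratin genes. With cisplatin 7 rose (median 1.75), against 34.6% of all genes tested, and 6 were lower with cotreatment (median -1.10), against 27.2%. Among these 6 were the uroplakins Upk3a (2.12 with cisplatin, -1.47 with cotreatment) and Upk1b (1.91 and -1.38) and the transcription factor Foxa1 (2.15 and -1.25). The summed level of the 8 genes was 5.05 to 30.6 CPM in vehicle, 44.2 to 59.4 CPM in cisplatin and 11.9 to 48.9 CPM in cotreated kidneys. Vehicle replicate 2 had the highest sum of its group and the highest Krt19, at 8.02 CPM, and vehicle replicate 1 the lowest of both, at 1.75 CPM of Krt19. Cotreated replicate 1, whose urothelium sum of 48.9 CPM was inside the cisplatin range, had 83.1 CPM of Krt8, 59.5 CPM of Krt18, 26.5 CPM of Krt19 and 41.6 CPM of Krt20, each below every cisplatin kidney. It also had the highest Krt18 of its group. The part of urothelial RNA in the keratin changes was not tested.

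The 8 collecting duct genes moved in both directions with cisplatin, as 2 rose and 2 fell (median -0.07). The water channel Aqp2 was at 1.41, the sodium pump regulator Fxyd4 at 0.96 and the steroid enzyme Hsd11b2 at -0.91. Their list summed to 481 to 827 CPM in vehicle and 736 to 1053 CPM in cisplatin kidneys, and these ranges overlapped. The mean sum went from 641 ± 143 to 848 ± 124 CPM, and mean Aqp2 from 161 ± 73.8 to 427 ± 77.6 CPM. The part of collecting duct RNA in the keratin changes was not tested. Of 4 mesothelium genes, which mark the capsule and also express keratins, 2 rose and 1 fell. Msln went from 1.85 ± 1.11 to 6.63 ± 0.459 and Upk3b from 3.84 ± 1.63 to 20.1 ± 4.004 CPM with cisplatin, and Gpm6a, which made up most of the summed level, from 154 ± 26.6 to 84.0 ± 12.2 CPM. The sum was 120.3 to 194 CPM in vehicle and 96.7 to 125 CPM in cisplatin kidneys. Among the cells known for vimentin, 6 of 8 fibroblast genes rose and none fell (median 1.54; 221 to 465 CPM summed in vehicle, 905 to 1183 CPM in cisplatin), 3 of 8 endothelial genes rose and 2 fell (median 0.05), and 3 of 7 podocyte genes rose and 4 fell (median -0.15). Of 8 macrophage genes 2 rose and 2 fell (median 0.24), with Itgam at 2.21, Cd68 at 1.68 and Csf1r at -1.23. None of 5 fat genes passed with cisplatin (median -0.40) and 4 were lower with cotreatment than with cisplatin alone (median -2.80). Of 5 tested T cell genes 4 fell (median -2.75), at summed levels of 3.05 to 6.57 CPM in vehicle and 1.04 to 1.84 CPM in cisplatin kidneys. Beside all these lists, 34.6% of all genes tested were higher and 35.9% lower with cisplatin, and 27.2% were lower with cotreatment than with cisplatin alone.

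The genes with the most similar profiles were sought among 10355 genes, by the root mean square (RMS) difference between log2 CPM values centred on their means over the 22 libraries. Of the members, Krt20 was closest to Havcr1 (0.647), the injury marker KIM1, then Lcn2 (0.690), which encodes NGAL, and Psrc1 (0.775), against its own RMS deviation of 3.69. Krt18 was closest to Sfn (0.199), the 14-3-3 protein sigma, Vopp1 (0.208) and S100a10 (0.216). Krt19 was closest to Itgb4 (0.405), an integrin of hemidesmosomes, Sprr1a (0.422), a cornified envelope precursor, and S100a6 (0.425).

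Krt8 was closest to Anxa4 (0.112), an annexin, Rras2 (0.119) and Blcap (0.126), and Krt7 to Rflnb (0.142), a filamin-binding protein, Slc6a18 (0.143), an amino acid transporter, and Fam49b (0.146). Vim was closest to Laptm5 (0.180), a lysosomal protein of blood cells, Tyrobp (0.202), a myeloid adaptor, and Thbs2 (0.202), a matrix protein, against its own deviation of 0.353. Among the members, the smallest difference was between Krt7 and Krt8 (0.345), followed by Krt18 and Krt19 (0.506). The own deviations were 0.420 for Krt7, 0.608 for Krt8, 1.17 for Krt18 and 1.56 for Krt19. Genes that vary little can differ little by this measure, so the order of these pairs does not rank how alike their patterns are.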

How the data were processed

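Polyadenylated kidney RNA was sequenced from stranded libraries. The authors aligned reads to mm10 with STAR and counted uniquely aligned reads per Ensembl gene with HTSeq 0.6.1p1, so the deposited values are raw counts, and reads aligning to several copies of a gene are missing. In the deposited counts, 66 unnamed, empty columns were not used, and genes without a symbol held 0.00459% of counts. The labels do not say that replicates were separate animals, so p-values measure only the spread between these libraries, which may be technical.

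Genes were filtered by filterByExpr (minimum count 10), scaled by TMM and fitted over all 22 libraries with 1 term per group by the quasi-likelihood test of edgeR 4.0.16 (limma 3.58.1, R 4.3.3), with Benjamini-Hochberg adjustment over 17131 genes and a threshold of 0.05. The biological coefficient of variation was 0.129. A gene's standard error is its log2 fold change over the square root of F, and its 95% interval uses 22.3 degrees of freedom. CPM per kb used the union of exons. The script was tested on simulated data.

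Members and lists were chosen with earlier results of these data known. Genes named from a list are among the 3 with its largest log2 fold changes in a comparison, past the threshold and with a mean of at least 0 log2 CPM, and profile neighbours had at least 3. Alternatives were DESeq2 1.42.0, other scalings, filters, samples and covariates, and each library left out. Same-numbered libraries were not paired (correlation of deviations over 0.1 in 7 of 31 pairs).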

Additional observations from a re-analysis of the deposited data

Results flagged for a closer look

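Vehicle replicate 1 had 45.9 CPM of Krt8, farther from the other 4 vehicle kidneys than Dixon's 95% limit allows. It was the only such value in 24 groups of a member gene, and chance gives about 1 in 20.

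The effect of KW6002 differed between cisplatin-treated and untreated mice by a log2 value of -0.39 for Krt7, -0.91 for Krt8, -1.29 for Krt18 and -1.19 for Krt19, by the interaction term of the edgeR fit (adjusted p from 3.33e-07 to 0.0319). The Krt7 value was -0.19 within the 500s (adjusted p = 0.433, same test). It also missed the threshold with no filter and without any of several single libraries. All 5 cisplatin kidneys lay above all 6 cotreated kidneys for Krt8, Krt18 and Krt19, and not for Krt7, against 18.5% of all genes tested. That separation concerns these 2 groups only and is not a test of the interaction.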

How the results depend on the processing

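Under every alternative, single libraries left out included, Krt8, Krt18, Krt19 and Krt20 kept their direction in the cisplatin, cotreatment and residual comparisons, and at an adjusted p of 0.05 they kept their calls. Krt20 gave no value with at least 10 counts required in every library. At the study's thresholds (adjusted p below 0.01 and log2 fold change beyond 1), Krt7 (0.96 with cisplatin, 0.81 cotreated against vehicle, -0.39 for the interaction) and Krt8 (-0.92 cotreated against cisplatin, 0.58 against vehicle, -0.91) no longer passed, nor did the Krt19 interaction (-1.19), which left 3 members against vehicle and 1 in the interaction. Genes passing numbered 4137 with cisplatin, 1766 cotreated against cisplatin, 2300 cotreated against vehicle, 1469 in the interaction and 0 for KW6002 alone, against 12085, 9564, 10222, 7312 and 3 at 0.05.

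Vim depended on the samples. Within the 500s it was 0.51 with cisplatin, -0.32 cotreated against cisplatin, 0.0533 for KW6002 alone and 0.19 cotreated against vehicle. With only the 2 groups compared it was -0.33 cotreated against cisplatin, and with the number series as a covariate 0.0719 cotreated against vehicle. With the fat covariate it was 0.20 cotreated against cisplatin, 0.0577 for KW6002 alone, 0.21 cotreated against vehicle and 0.14 for the interaction. The fat level itself differed between the cisplatin and cotreated groups. Without vehicle replicates 1 and 2, chosen after seeing the data, it was 0.51 with cisplatin, 0.26 for KW6002, 0.19 cotreated against vehicle and -0.58 (adjusted p = 0.0444) for the interaction, where Krt7 was -0.29 and Krt20 -1.71. With 1 library left out, Vim ran from -0.0660 to 0.23 with cisplatin and from -0.30 to 0.0311 for the interaction.

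The Krt7 interaction was -0.38 with no filter (adjusted p = 0.0554), -0.19 within the 500s and -0.46 to -0.32 with 1 library left out; that of Krt20 was -1.19 by DESeq2 (adjusted p = 0.0329) and -1.49 to -0.99 with 1 library left out. For KW6002 alone Krt8 changed sign with library size scaling (0.00225) and Krt18 (-0.0257) and Krt19 (-0.11) within the 500s, and with 1 library left out Krt8 ran from -0.0391 to 0.0115 and Krt19 from -0.19 to 0.32. Genes past 0.05 for KW6002 alone numbered 0 with 2 groups fitted, 40 with the series covariate, 8 within the 500s, 1 with the fat covariate, 1 without vehicle replicates 1 and 2, 99 by DESeq2 and 1 to 64 with 1 library left out (64 without vehicle replicate 3). With the replicate number as a block, Krt8 was 0.0113 for KW6002 alone and 1 gene passed; the block changed no other call of a member, and 8 of 22 libraries correlated best with their own number. With lengths of the longest transcript the ratio of type II to type I keratins was 3.50 with vehicle, 3.69 with KW6002, 0.512 with cisplatin and 1.09 with cotreatment. Scaling by library size brought the median of all genes from -0.0124 to 0.20 with cisplatin and from -0.00175 to 0.16 cotreated against vehicle. Of the calls, 65.8% and 67.7% were then higher. In the main fit 49.1% were higher with cisplatin, and 5108 calls were higher and 5114 lower cotreated against vehicle. For the interaction 42.5% were higher, against 53.4% in the main fit. Relative to the shifted medians, no keratin changed direction in these comparisons. Except where values are given, the cause was not tested.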
